A study of Homo sapiens with 5 samples.

Results

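Long intergenic noncoding RNA genes that carry a symbol of the form LINC followed by 5 digits were examined in RPE1 cells, a human cell line in wide use that was derived from retinal pigment epithelium, after 18 h with doxorubicin or with its solvent DMSO. The genes were chosen by their abundance alone: a gene was taken when its raw counts, summed over all 5 libraries, reached 50. Of 876 such symbols among the 26485 genes of the count table, 150 met this rule, 331 had a summed count of 1 to 49, and 395 had 0 counts in every library. A filter on low counts then kept 149 of the 150 for testing, among 14187 genes in all. LINC00312, with 16 and 9 counts in DMSO against 9, 7 and 12 with doxorubicin, was the member that could not be tested. Because the rule uses the sum over both treatments, a gene nearly silent in one treatment could enter only through its counts in the other, so the counts of members below are descriptions and not support for a direction.

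Poly-A RNA of wild-type RPE1 cells was sequenced in 2 DMSO libraries, 2 libraries of cells given 0.2 μM doxorubicin and 1 at 0.34 μM, all at 18 h. All groups are the same single cell line, and the study's methods call the libraries of a treatment biological replicates. The sample labels give the concentrations in μM as written here, whereas the treatment protocol prints both with larger figures in the same unit. The study joined both concentrations into 1 doxorubicin group, and the main comparison here did the same, 3 doxorubicin against 2 DMSO libraries. Library totals ran from 23773061 to 36725345 counts. Of 10 markers of retinal pigment epithelium, 2, MITF and OTX2, exceeded 1 CPM (counts scaled to library size) in every library. The visual cycle gene RPE65 stayed between 0.118 and 0.305 CPM and RLBP1 at or below 0.116 CPM, so these defining markers were at or near 0. The 5 fibroblast or mesenchyme markers summed to 6340 to 6724 CPM in DMSO and 5195 to 6039 CPM in doxorubicin. Vimentin alone had 4711 to 5805 CPM over all libraries, whereas COL1A2 of the same list stayed at or below 0.464 CPM. Summed CPM of 4 epithelial markers, nearly all of it keratins 8 and 18, was 583 to 696 in DMSO and 970 to 1176 in doxorubicin. The 4 leukocyte markers summed to 0.191 to 0.313 CPM and 1.08 to 2.20 CPM, with CD3E at 0 in every library, and the 2 endothelial markers to at most 3.33 CPM. The part of these markers in the results below was not tested.

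LINC symbols are numbered and not given by function, and the transcripts share little beyond their length and the absence of a long reading frame. Some act where they are made, on genes beside them, some bind proteins or other RNAs in the cytoplasm, and some were later found to encode short proteins. Many are transcribed at low levels and turned over quickly in the nucleus by the RNA exosome. Doxorubicin is a DNA intercalator that traps topoisomerase 2 on DNA and causes double-strand breaks, and breaks activate p53, a transcription factor with noncoding as well as coding targets.

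Promoters of 4 members are shown because the results below turn on these genes. LINC01021, whose RefSeq name is PURPL, has a published link to p53, LINC00313 and LINC00641 changed in opposite directions, and LINC01468, now LNCAROD, was almost absent from DMSO libraries. Each sequence runs 5′ to 3′ on the gene's own strand from 250 bases before to 50 bases after the RefSeq start on GRCh38.p14, and capitals mark matches to any of 5 motifs searched on both strands.
LINC01021 promoter, chr5:27472042-27472341, plus strand: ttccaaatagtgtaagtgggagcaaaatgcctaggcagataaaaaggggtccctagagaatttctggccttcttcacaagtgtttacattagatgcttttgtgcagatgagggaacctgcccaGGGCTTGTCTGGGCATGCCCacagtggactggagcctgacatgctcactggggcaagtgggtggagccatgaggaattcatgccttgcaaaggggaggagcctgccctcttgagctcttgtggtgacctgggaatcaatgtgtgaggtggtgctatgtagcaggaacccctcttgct
LINC00641 promoter, chr14:21206851-21207150, minus strand: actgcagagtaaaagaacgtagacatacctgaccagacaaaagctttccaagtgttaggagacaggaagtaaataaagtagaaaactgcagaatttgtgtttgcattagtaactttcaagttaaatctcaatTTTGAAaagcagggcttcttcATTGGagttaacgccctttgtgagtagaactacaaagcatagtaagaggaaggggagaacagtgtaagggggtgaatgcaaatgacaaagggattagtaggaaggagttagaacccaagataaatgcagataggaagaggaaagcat
LINC00313 promoter, chr21:43478174-43478473, minus strand: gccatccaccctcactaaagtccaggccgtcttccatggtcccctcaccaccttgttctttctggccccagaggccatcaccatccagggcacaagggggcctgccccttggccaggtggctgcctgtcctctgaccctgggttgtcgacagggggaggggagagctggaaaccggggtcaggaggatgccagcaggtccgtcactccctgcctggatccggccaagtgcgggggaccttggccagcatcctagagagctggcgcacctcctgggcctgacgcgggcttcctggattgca
LINC01468 promoter, chr10:52470484-52470783, minus strand: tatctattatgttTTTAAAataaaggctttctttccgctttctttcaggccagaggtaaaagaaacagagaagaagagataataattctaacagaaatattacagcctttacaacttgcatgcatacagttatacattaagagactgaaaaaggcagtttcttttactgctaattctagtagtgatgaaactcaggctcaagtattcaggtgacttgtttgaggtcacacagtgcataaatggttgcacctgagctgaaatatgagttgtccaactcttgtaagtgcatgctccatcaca

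The motifs were TTTGAA and TTTAAA (cores of the cell cycle homology region), CCAAT (the NF-Y box), TATAAA (the TATA box) and the p53 decamer (the 10-base unit of which p53 sites hold a pair), and none of these contains another. The window of LINC01021 held 2 p53 decamers that abut, GGGCTTGTCT at -127 and GGGCATGCCC at -117, counted from the start. Such an abutting pair, a search added after the sequences had been seen, was found in 6 of 34961 RefSeq promoters of this length (0.0172%) and in 1 of the 115 members that have a promoter entry. In the window of LINC00641, TTTGAA lay at -118. A match to the NF-Y box on the other strand lay at -97. LINC01468 held TTTAAA at -237, and the window of LINC00313 held none of the 5 motifs. LINC00319 and LINC01164 have no entry. At least 1 p53 decamer was present in 5.22% of member promoters and 6.63% of all promoters, and TTTGAA in 11.3% and 15.2%. TTTAAA was present in 8.7% and 12.3%, TATAAA in 8.7% and 11.5%, and CCAAT in 43.5% and 34.6%. These matches are letters in a window and were not tested for binding. Median GC content was 61% over the member promoters and 58.7% over all.

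The comparison of doxorubicin with DMSO asked which of these RNAs changed with treatment. At the study's threshold, an adjusted p of 0.01 (edgeR quasi-likelihood test, Benjamini-Hochberg adjustment over all genes tested), 3 of the 149 members were higher in doxorubicin, LINC00319, LINC00313 and LINC01164, and 1 was lower, LINC00641. The share of all genes tested that passed was 1.29% higher and 2.73% lower, and of the members 2.01% and 0.671%. At an adjusted p of 0.05, 11 members were higher and 7 lower (7.38% and 4.7%), beside 6.1% and 7.48% of all genes. DESeq2 at 0.01 called 12 members higher and 5 lower of the 148 to which it gave an adjusted p (8.11% and 3.38%), beside 6.72% and 8.18% of all genes. The shares called higher were thus near the background, and those called lower were below it by each of these rules, and no test of the list was made.

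Over the 149 members the log2 fold change (doxorubicin over DMSO) was above 0 in 92 and below 0 in 57, with a median of 0.18, and over all 14187 genes the median was 0.013. In 79 members it lay within 0.5 of 0. All 3 doxorubicin libraries lay above both DMSO libraries in 39 members and below both in 18, that is 26.2% and 12.1%, where 24.3% and 23.4% of all genes did so. Depth differed between the sets, as the median summed count was 231 in members and 3032 in all genes. By depth, 0 of 69 members with a summed count under 200 were called at 0.01 by edgeR (DESeq2 called 2.94% of those it tested). Called by edgeR were 2 of 43 with 200 or more but under 1000, and 2 of 37 with 1000 or more, beside 4.02% of all genes at any depth. The share of all genes at each of these depths was not taken, so no share of members given here is matched for depth. Fold changes of single members ranged from -1.90 in LINC01224 to a fitted 6.70 in LINC01164.

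**Figure D1:**
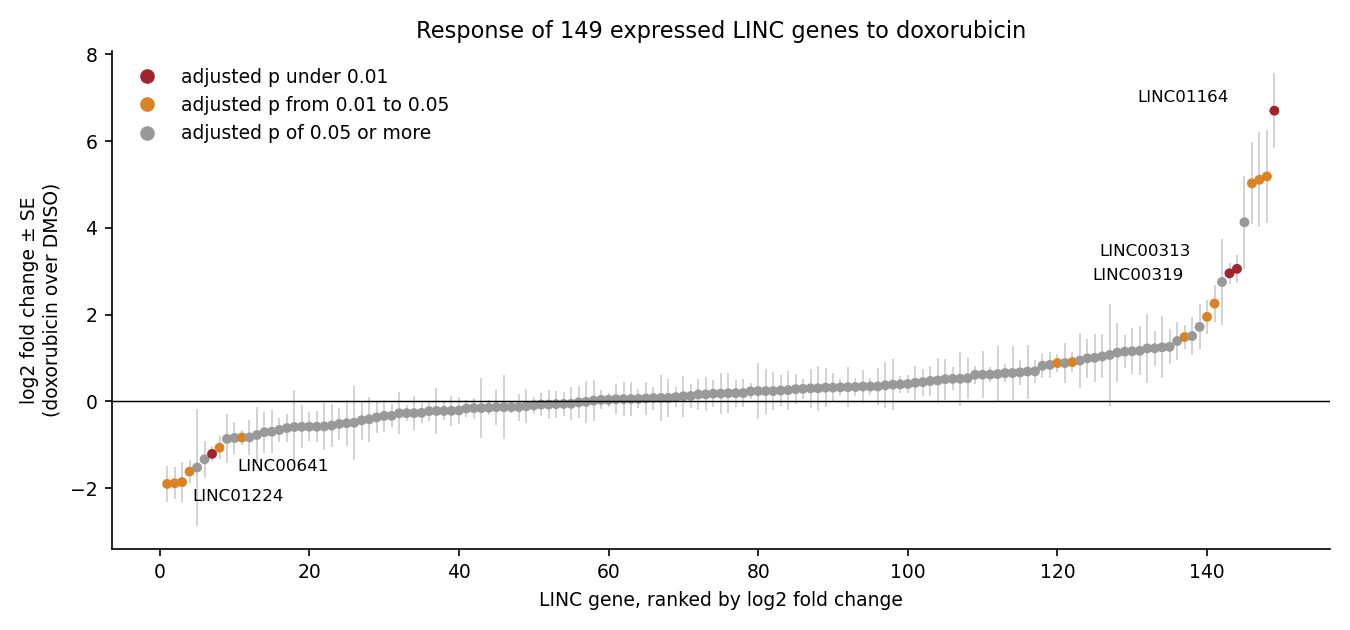
Log2 fold change (doxorubicin over DMSO, y axis) of the 149 LINC genes tested, ranked along the x axis; points are edgeR estimates, bars ± 1 SE, and colours the adjusted p. The 4 genes past 0.01 sit at both ends, and 92 of 149 estimates lie above 0.

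**Figure D2:**
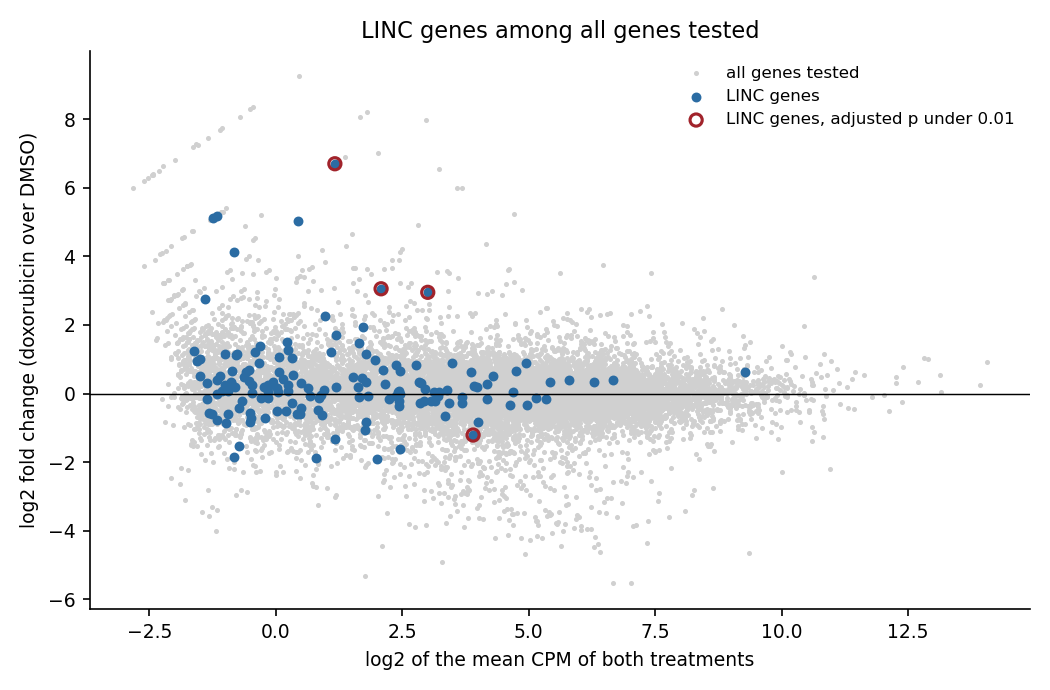
Log2 fold change (y axis) against the log2 of the mean CPM of both treatments (x axis) for all 14187 genes tested in grey and the 149 LINC genes in blue, with the 4 members past an adjusted p of 0.01 ringed. Most LINC genes lie at the low end of the expression range, and the isolated blue point at the right is LINC00657.

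The members with the smallest adjusted p in edgeR were a pair of neighbouring RNAs on chromosome 21. LINC00319 (chr21:43446601-43453902) had 47 and 48 counts in the DMSO libraries, 360 and 297 with 0.2 μM and 595 with 0.34 μM. Normalized for depth this was 1.84 ± 0.0616 CPM in DMSO (SD, n = 2) and 14.2 ± 2.04 CPM in doxorubicin (SD, n = 3). Every doxorubicin library was far above both DMSO libraries, which agreed closely. The log2 fold change was 2.95 ± 0.25 (SE), with an adjusted p of 0.00141 (edgeR). Its call was lost when either DMSO library was left out (adjusted p = 0.0111 without replicate 1 and 0.0151 without replicate 2, edgeR), while the fold change stayed between 2.84 and 3.05 in all 5 leave-one-out fits.

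LINC00313 (chr21:43462094-43478223) lies 8192 bases from LINC00319 and behaved alike. Its counts were 25 and 22 in DMSO, 169 and 158 with 0.2 μM and 348 with 0.34 μM, so the groups again did not overlap. The level was 0.908 ± 0.065 CPM in DMSO (SD, n = 2) and 7.56 ± 1.75 CPM in doxorubicin (SD, n = 3). The log2 fold change was 3.05 ± 0.33 (SE), with an edgeR adjusted p of 0.00298, and leaving out any 1 library moved that p to between 0.0107 and 0.0246.

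Both RNAs lie within the annotated span of HSF2BP, a gene with a known role in meiotic recombination. HSF2BP itself went from 5.98 to 13.2 CPM, a log2 fold change of 1.14 ± 0.22 (SE) with an adjusted p of 0.0201 (edgeR). On the other side, 19470 bases from LINC00319, SIK1, a salt-inducible kinase, was called higher, from 290 to 922 CPM (log2 fold change 1.67 ± 0.17, edgeR adjusted p = 0.00221). Beyond HSF2BP, RRP1B, a nucleolar protein gene 181337 bases from LINC00313, had -0.27 ± 0.22 (adjusted p = 0.452, edgeR). Both LINC genes and SIK1 were thus called higher and RRP1B was not called, but whether the fold changes of these genes differ from each other was not tested. The library kit kept strand, but the strand setting of the counting is not given in the sources at hand, so reads of HSF2BP and of the LINC genes inside it may not be fully separated.

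**Figure D3:**
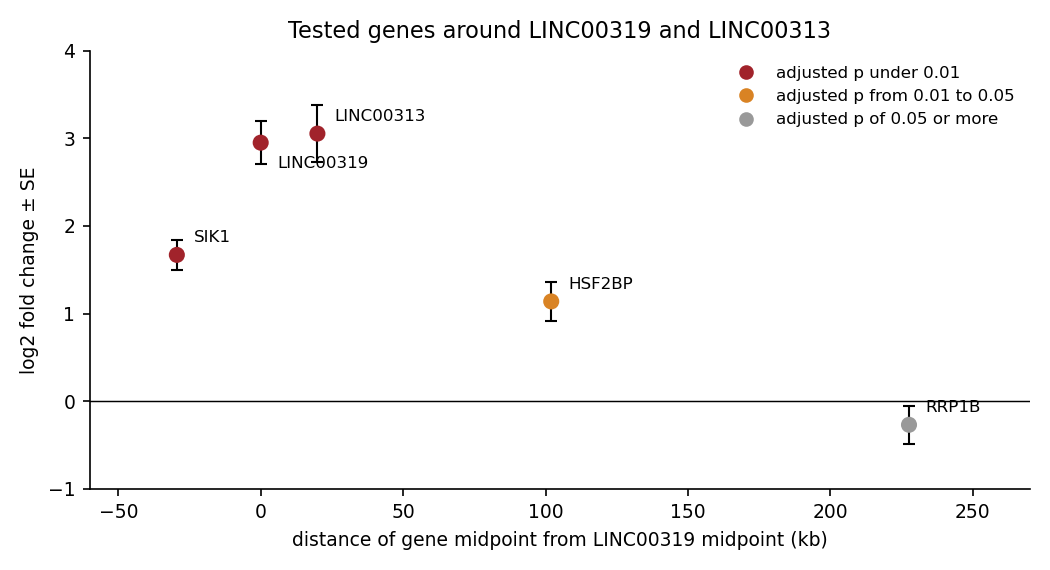
Log2 fold change ± SE (y axis; edgeR, 3 doxorubicin against 2 DMSO libraries) of the tested genes around LINC00319 and LINC00313, placed by the distance in kb of each gene's midpoint from that of LINC00319 (x axis). Both LINC genes stand near 3, SIK1 at 1.67, HSF2BP at 1.14 and RRP1B below 0.

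LINC01164 (chr10:131772398-131790199) was close to absent from DMSO cells. It had 2 and 0 counts in the DMSO libraries, 71 and 96 with 0.2 μM and 241 with 0.34 μM. The ratio of its counts, scaled for depth, was 122 with a 95% interval from counting error of 33.7 to 1015, and its edgeR adjusted p was 0.00544. The call was kept in 1 of the 5 leave-one-out fits (adjusted p = 0.00908 without 0.2 μM replicate 1, edgeR) and the adjusted p in the others was at most 0.0309. No annotated gene overlaps it, and the nearest tested protein-coding gene, PPP2R2D, a phosphatase regulatory subunit 110809 bases away, differed by 0.08 on the log2 scale (adjusted p = 0.747, edgeR).

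LINC00641 (chr14:21200079-21206900) was the member that fell at the 0.01 threshold. Its counts were 570 and 510 in DMSO against 222, 224 and 333 in doxorubicin. That is 20.9 ± 1.25 CPM (SD, n = 2) and 9.02 ± 0.387 CPM (SD, n = 3), and the doxorubicin libraries, of both concentrations, lay within 8.58 to 9.31 CPM. The log2 fold change was -1.21 ± 0.17 (SE), with an edgeR adjusted p of 0.00761. Leaving out any 1 library removed the call (adjusted p 0.0205 to 0.0540, edgeR), with the fold change between -1.29 and -1.15. HNRNPC, which encodes a nuclear RNA-binding protein and lies 2247 bases away, stood at -0.56 on the log2 scale (adjusted p = 0.0933, edgeR) and did not pass the test.

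**Figure D4:**
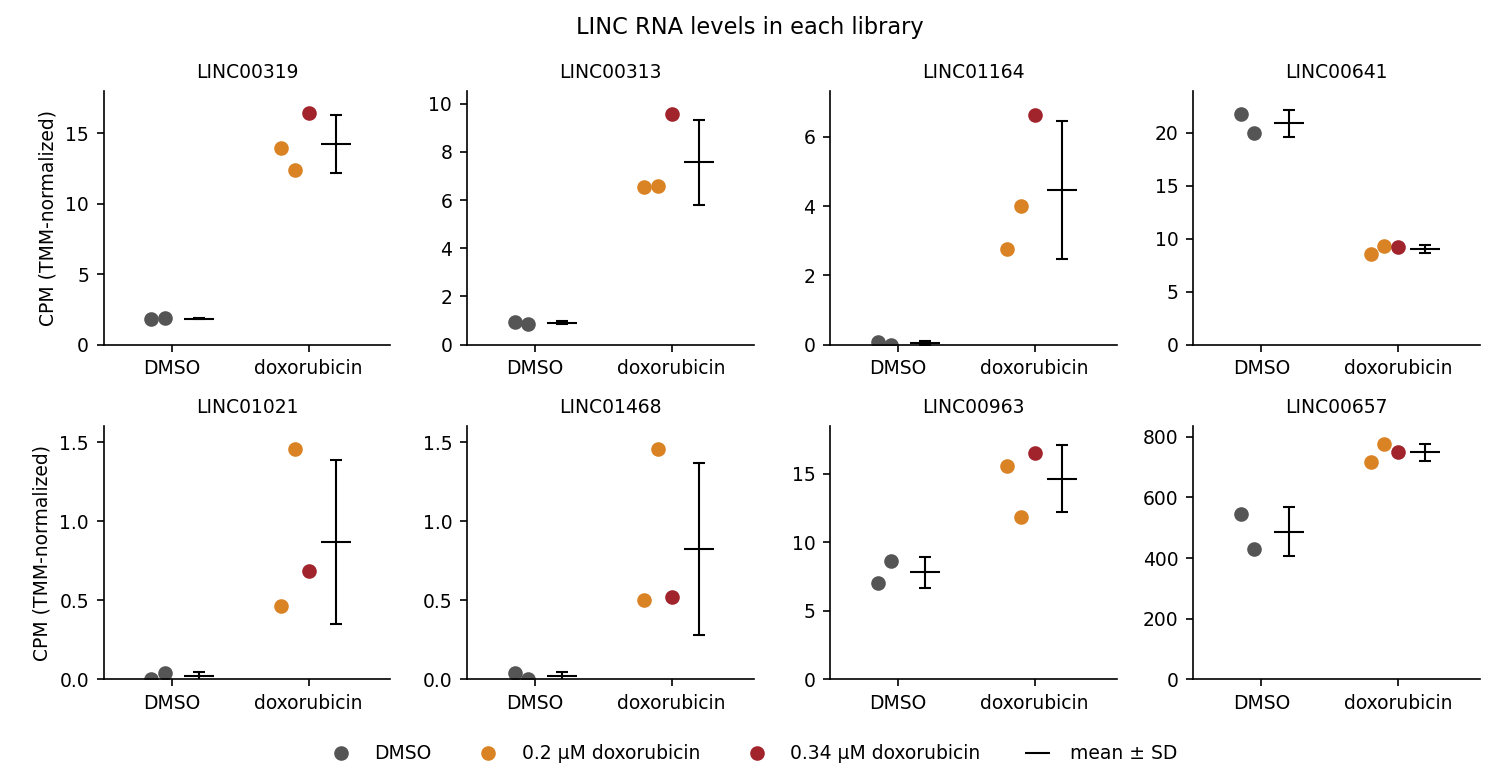
TMM-normalized CPM (y axes, each from 0) of 8 LINC genes in every library, with DMSO in grey, 0.2 μM doxorubicin in orange and 0.34 μM in red; black bars are the mean ± SD of each treatment (n = 2 and n = 3). In LINC00641 the doxorubicin points lie below the DMSO points, and in the other genes higher than them.

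Some further members were near silent in DMSO and detected in every doxorubicin library. LINC01021 (PURPL, chr5:27472292-27496401), known as a p53-induced RNA that feeds back on p53 levels, had 0 and 1 counts in DMSO against 12, 35 and 25 with doxorubicin. The ratio of counts was 43.2 (95% counting interval 7.51 to 1730), with an adjusted p of 0.0245 by edgeR, which misses 0.01, and of 0.00853 by DESeq2. Its promoter is the one with the abutting decamers shown above. CDH10, a cadherin and the nearest tested protein-coding gene at 2827314 bases, rose by 1.71 on the log2 scale (edgeR adjusted p = 0.00523).

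LINC01468 (LNCAROD, chr10:52450877-52470533) had 1 and 0 counts in DMSO against 13, 35 and 19 with doxorubicin, and was named after its values were seen. The ratio was 40.2 (95% counting interval 6.98 to 1612), with an adjusted p of 0.0284 by edgeR and of 0.0105 by DESeq2. It lies 133220 bases from DKK1, a secreted inhibitor of Wnt signalling, which went from 31.4 to 156 CPM (log2 fold change 2.31 ± 0.55, edgeR adjusted p = 0.0397). Neither passed 0.01, and for both the doxorubicin libraries lay above DMSO on average.

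LINC00824, on chromosome 8, had 4 and 0 counts in DMSO against 36, 93 and 98 with doxorubicin (adjusted p = 0.0186 by edgeR and 4.26e-06 by DESeq2). Its nearest tested coding gene, MYC, 662318 bases away, differed by 0.01 on the log2 scale (adjusted p = 0.978, edgeR). LINC00475, named after its values were seen, had 3 and 0 counts in DMSO against 39, 9 and 49 with doxorubicin, a ratio of 19.4 (95% counting interval 6.45 to 95.8) with an adjusted p of 0.0503 by edgeR and 0.00607 by DESeq2. These 4 RNAs and LINC01164 did not overlap between the treatments, but they met the count rule only through their doxorubicin counts. Their lack of overlap is therefore no support for a rise. Of all genes tested, 24.3% had every doxorubicin library above both DMSO libraries. In LINC01021, LINC01468, LINC00824 and LINC00475 the 0.2 μM libraries lay far apart from each other.

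Members of moderate abundance that passed 0.01 in DESeq2 and not in edgeR are named by the same rule. LINC01573, now NALT1, a transcript that starts near NOTCH1, had 24 and 11 counts in DMSO against 79, 75 and 128 with doxorubicin. Its log2 fold change was 2.26 ± 0.42 (SE; adjusted p = 0.0175 by edgeR and 6.17e-05 by DESeq2). NOTCH1, the receptor gene 1794 bases away, was called higher as well, from 27.0 to 63.9 CPM (1.24 ± 0.19, edgeR adjusted p = 0.00964).

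LINC00452 had 47 and 24 counts in DMSO against 108, 144 and 207 with doxorubicin, a log2 fold change of 1.95 ± 0.38 (edgeR adjusted p = 0.0219). It lies 31027 bases from GAS6, the ligand of the TAM receptor kinases (0.81, edgeR adjusted p = 0.0885). LINC00565, 5197 bases from LINC00452 and named for its position with its values known, had 0.12 (adjusted p = 0.893, edgeR). The adjoining LINC gene thus did not move with it past the test. Another noncoding gene, GAS6-AS1, 52262 bases from LINC00452, was called higher (1.85 ± 0.24, edgeR adjusted p = 0.00587). GAS6-AS2, 28271 bases away, was not (0.66, edgeR adjusted p = 0.143). Both were named with their values known.

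LINC00893, now EOLA1-DT, is divergent from a coding gene. It had 48 and 37 counts in DMSO against 121, 112 and 162 with doxorubicin, and a log2 fold change of 1.48 ± 0.28 (edgeR adjusted p = 0.0187). LINC00294 had 653 and 464 counts in DMSO against 938, 1066 and 1404 with doxorubicin, with 0.88 ± 0.20 (edgeR adjusted p = 0.0337). TCP11L1, 2587 bases from LINC00294, had 1.12 (edgeR adjusted p = 0.0165), and CSTF3, a cleavage stimulation factor subunit 5130 bases away, had -0.22 (adjusted p = 0.615, edgeR). In all of these RNAs the doxorubicin libraries lay above both DMSO libraries.

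On the falling side, LINC00342 had 212 and 214 counts in DMSO against 80, 50 and 104 with doxorubicin, and a log2 fold change of -1.62 ± 0.27 (adjusted p = 0.0119 by edgeR and 7.39e-06 by DESeq2). ANKRD36C, an ankyrin repeat gene 21951 bases away, had -1.23 (edgeR adjusted p = 0.0364). LINC01224 had 124 and 201 counts against 40, 58 and 41 (-1.90 ± 0.41, edgeR adjusted p = 0.0276), and ZNF91, a zinc finger gene 3762 bases from it, had -0.13 (adjusted p = 0.810, edgeR). The decrease at LINC01224 was therefore not accompanied by a called change of its neighbour.

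LINC01515 went from 57 and 84 counts to 21, 20 and 21 (-1.89 ± 0.37, edgeR adjusted p = 0.0219). LINC01128 went from 583 and 473 to 314, 265 and 406 counts (-0.83 ± 0.18, edgeR adjusted p = 0.0281). Past 0.05 but by neither tool at 0.01 lay LINC00987 (115 and 122 counts, then 56, 58 and 72) and LINC00260 (28 and 18 counts, then 5, 6 and 10), which were named after their values were seen. In each of these the treatments did not overlap.

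By level, 51 of the 149 members were under 1 CPM in both DMSO libraries, and 7 of these were at 1 CPM or more in every doxorubicin library. They were LINC00313, LINC01164, LINC01573, LINC00824, LINC00106, LINC00324 and LINC01588, the last 3 singled out with their values known and not called by edgeR at 0.01. LINC01515 alone went the other way, from above 1 CPM in both DMSO libraries to below it in all doxorubicin libraries. A further 70 members were at 1 CPM or more in every library. None of these numbers was taken over all genes tested. The count rule also sums more doxorubicin than DMSO libraries, so the numbers do not support a direction. In bulk RNA, fewer cells that express a gene and less RNA of it per cell cannot be told apart.

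LINC00657, which became NORAD, a cytoplasmic RNA known to bind PUMILIO proteins and to guard chromosome stability, was the most counted member. It had 14250 and 10996 counts in DMSO against 18570, 18670 and 27226 with doxorubicin, or 544 and 431 CPM against 718, 776 and 750 CPM. The doxorubicin libraries were all above DMSO, but the DMSO pair was spread more than the doxorubicin libraries. The log2 fold change was 0.62 ± 0.17 (SE), with an adjusted p of 0.0583 by edgeR, which does not pass, and of 0.00305 by DESeq2. It held 33.6% to 35.4% of the members' counts in DMSO and 40.8% to 42.6% in doxorubicin. All members together made up 0.134% to 0.150% of the library in DMSO and 0.172% to 0.185% in doxorubicin, and without LINC00657 these were 0.0887% to 0.0971% and 0.102% to 0.106%.

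The other 7 of the 8 members with most counts were LINC01279, LINC00674, LINC01000, LINC00998, LINC00094, LINC00667 and LINC00294, described above. Of the first 6, log2 fold changes ran from -0.16 in LINC00094 to 0.40 in LINC01279, and the smallest edgeR adjusted p was 0.228. LINC00674 had 78.8 and 59.8 CPM in DMSO and 91.5, 75.8 and 93.2 CPM in doxorubicin, and overlapped between treatments (0.32, adjusted p = 0.280, edgeR). Its nearest tested coding gene, KPNA2, an importin 54701 bases away, fell by 2.17 on the log2 scale (edgeR adjusted p = 0.00112). The coding gene was thus called lower and the LINC gene was not called, and the difference between them was not tested.

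From a list of 24 LINC symbols with described roles, 15 were members. By edgeR at 0.01, 0 of them were called, and by DESeq2 3 were, all higher (LINC00657, LINC01021 and LINC00963). Those 3 are 20% of the list, where 6.72% of all genes were called higher by DESeq2 and 1.29% by edgeR. Of the 15, 10 had a fold change above 0 and 5 below. LINC00963, linked in the literature to growth of tumour cells, had 184 and 220 counts in DMSO against 402, 285 and 599 with doxorubicin, and a log2 fold change of 0.91 ± 0.23 (adjusted p = 0.0493 by edgeR and 0.00662 by DESeq2). LINC00152 (CYTOR), studied for its part in proliferation, had 641 and 449 counts against 770, 801 and 1305 (0.65 ± 0.20, edgeR adjusted p = 0.0789), with all doxorubicin libraries above DMSO and no call.

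None of the other noncoding members of the list was called by either tool. LINC00467, LINC00662, LINC00673, LINC00941 and LINC01605 had log2 fold changes of 0.19, -0.15, -0.22, -0.27 and 0.19, and the smallest edgeR adjusted p of these was 0.381. LINC01133 had 46 and 1 counts in DMSO against 16, 0 and 11 with doxorubicin. LINC01116 had 17 and 90 counts in DMSO against 29, 68 and 20 with doxorubicin. In the last 2 genes the libraries of 1 treatment differed more than the treatments did, and their standard errors were 1.35 and 0.86 on the log2 scale. In each of them replicate 2 differed from replicate 1 in the same direction in DMSO and with 0.2 μM.

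RefSeq now lists 12 members as protein coding, most of them short proteins. They include MTLN (LINC00116), a mitochondrial microprotein, NBDY (LINC01420), a microprotein of P-bodies, and SMIM30 (LINC00998) and SMIM26 (LINC00493), small membrane proteins. The log2 fold change was 0.67 for MTLN, 0.34 for SMIM30, 0.23 for SMIM26 and 0.04 for NBDY. Of the 12, 11 had values above 0 and 0 were called by edgeR or DESeq2 at 0.01. The estimates of MTLN came from 91 and 128 counts in DMSO against 195, 126 and 270 with doxorubicin, so that the second DMSO library exceeded the lower of the 0.2 μM libraries before scaling for depth. LINC01279 and LINC00950 now belong to the records of CCDC80 and TMEM8B, which also have rows of their own (log2 fold changes 0.40 and 0.24 beside 0.18 and 0.67), and no source used here says how reads were split between such rows.

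Position relative to coding genes was not used by the rule. The 4 members called by edgeR had a fold change of the same sign as their nearest tested protein-coding gene. These were 3 distinct genes, of which none was called at 0.01. Of the 17 members called by DESeq2, 16 shared the sign. Some of these neighbours were near 0, as PPP2R2D beside LINC01164 (0.08) and MYC beside LINC00824 (0.01). The same share among called protein-coding genes was not taken. Over all 149 members the direction was shared in 100, and Pearson's r of the log2 fold changes was 0.376 (Spearman's rho 0.377). Among 114 members within 100 kb of that neighbour, 79 shared its direction (r = 0.415, rho 0.426). Among 16 that overlapped it 14 did (r = 0.787, rho 0.667), and LINC00319 and LINC00313 both enter this set with the same neighbour, HSF2BP. The same match of 12691 protein-coding genes to their nearest protein-coding gene gave a shared direction in 55.2% (r = 0.123), and in 58.2% of the overlapping ones (r = 0.213). These correlations run across genes of the same libraries, which are not independent replicates, neighbours recur, and overlapping genes may share reads.

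Transcripts that start head to head with a coding gene within 1000 bases were a smaller set of 13 members, 12 of them with a tested partner. Of these, 11 had a fold change of the same sign as the partner, and 0 were called at 0.01 by edgeR. The share among coding genes that start head to head was not taken. Some members, such as LINC01481, also overlap the partner and may share reads with it. LINC00894 (EOLA2-DT) had 1.22 beside 0.39 for EOLA2, LINC01137 (LITATS1) had 0.69 beside 0.52 for ZC3H12A, an RNase of inflammatory transcripts, and LINC01481 (PRANCR) had -0.58 beside -0.33 for CNOT2, a deadenylase subunit. These 3 and the exception were named after their values were seen. The exception was LINC00936 (ATP2B1-AS1), at 0.05 beside -0.78 for ATP2B1, a calcium pump (edgeR adjusted p = 0.0246 for ATP2B1). Apart from ATP2B1 and LINC00893, no value in this set passed 0.05 in edgeR. Of 61 members that overlap no RefSeq gene, 1 was called higher (LINC01164) and 1 lower (LINC00641).

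**Figure D5:**
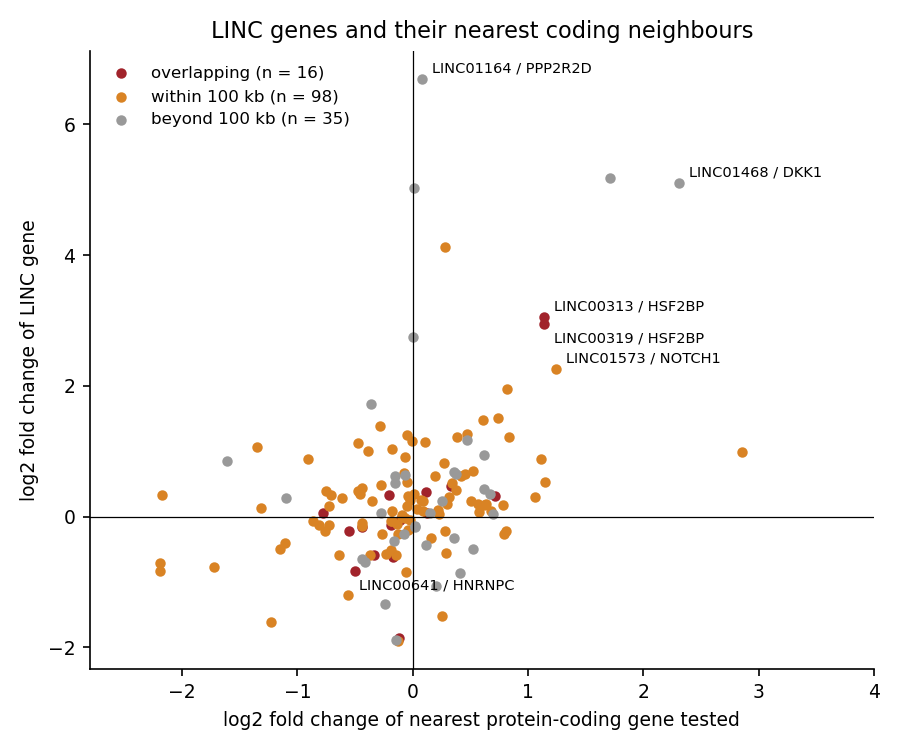
Log2 fold change of each of the 149 LINC genes (y axis) against that of its nearest tested protein-coding gene (x axis), coloured by whether the pair overlaps (n = 16), lies within 100 kb (n = 98) or farther apart (n = 35). In 100 of 149 pairs both values have the same sign, and LINC01164 stands high above a neighbour near 0.

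Members that lie within 100 kb of each other formed 8 pairs. Besides LINC00319 and LINC00313, none had both members past an adjusted p of 0.05. LINC00704, known as MANCR, a mitosis-associated RNA, overlaps LINC00705, and both were named with their values known. LINC00704 had 535 and 887 counts in DMSO against 534, 624 and 694 with doxorubicin (-0.33 ± 0.26, edgeR adjusted p = 0.444), while LINC00705 had 12 and 15 counts against 20, 34 and 14 (0.69, edgeR adjusted p = 0.503). Neither differed beyond its spread.

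The 2 concentrations were compared in a fit of 3 conditions, in which the lone 0.34 μM library takes its spread from the other groups. Of the 149 members, 0 differed at an adjusted p of 0.01 between 0.34 and 0.2 μM in edgeR (0% of all genes did) and 0 in DESeq2. At an unadjusted p of 0.05 the number of members was 0 by both tools, where 22 of all 14187 genes passed by edgeR and 26 by DESeq2. That is far fewer than this threshold passes by chance alone. The comparison was thus too strict to show whether members differ between the concentrations. The median log2 difference of 0.34 over 0.2 μM was 0.0059. LINC01164 had 2.75 and 3.99 CPM with 0.2 μM and 6.64 CPM with 0.34 μM, and LINC00319 had 13.9 and 12.3 against 16.4 CPM. With 1 library at the higher concentration, such differences were not separable from the spread between libraries.

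Genes that act in nuclear RNA decay or retention were listed because their products degrade or hold noncoding transcripts. Of 24 measured, 2 exosome subunits fell, EXOSC8 (-2.03 ± 0.25, edgeR adjusted p = 0.00486) and EXOSC9 (-1.37 ± 0.19, edgeR adjusted p = 0.00688), and 0 were called higher by edgeR. The share called lower was 8.33% of the list and 2.73% of all genes. Without DMSO replicate 1 the number called was 1, and without any other single library it was 0. EXOSC8 went from 37.6 to 9.21 CPM and EXOSC9 from 38.9 to 15.1 CPM. DESeq2 called 5 lower, adding EXOSC10, EXOSC6 and HNRNPU, which is 20.8% of the list beside 8.18% of all genes. The catalytic subunit DIS3 had -0.014 (adjusted p = 0.976, edgeR). Over the list 20 values were below 0 and 4 above, with a median of -0.31 beside 0.013 over all genes. The part of these genes in the levels of the LINC RNAs was not tested.

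Spread between libraries of one condition was wider for members than for genes in general. The median absolute log2 difference of the DMSO pair was 0.473 over members and 0.363 over all genes, and of the 0.2 μM pair 0.363 and 0.291. In 23 of 149 members the DMSO libraries differed by more than 1 on this scale, and in 22 the 0.2 μM libraries did. Over all 14187 genes these numbers were 1652 and 1329. Members also had fewer counts, with a median sum of 231 beside 3032, and the part of depth in this spread was not tested. At the edge of the rule lay LINC00942, with 8 and 2 counts in DMSO against 7, 15 and 18 with doxorubicin, and LINC01358 and LINC00882, with summed counts of 51 each. Just outside it, with a summed count of 47 each, were LINC00926, LINC00511 (8 and 6 counts, then 10, 10 and 13) and LINC00669, which had 22 and 21 counts in DMSO against 4, 0 and 0 with doxorubicin.

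For comparison, 333 antisense genes (symbols with -AS) and 20 small nucleolar RNA host genes met the same count rule. Of the antisense genes 2 were called higher and 1 lower by edgeR at 0.01, or 0.601% and 0.3%, beside 1.29% and 2.73% of all genes. Their median log2 fold change was 0.13. All 3 doxorubicin libraries lay above both DMSO libraries in 28.8% of them and below both in 16.5%. Of the host genes 0 were called by edgeR or DESeq2 at 0.01, with a median of -0.072. These classes are given beside the LINC members without a test of any difference.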

How the data were processed

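RNA was measured in 5 libraries of RPE1 cells, 2 with DMSO, 2 with 0.2 μM and 1 with 0.34 μM doxorubicin. The deposited values are raw counts per gene, for which the authors mapped poly-A reads to hg38 by STAR and counted them with featureCounts of Rsubread on the iGenomes annotation. No source used here gives tool versions, the strand setting or how multimapping reads were handled. A deposited table of the authors' own DESeq2 comparison was not used here, and neither were ChIP-seq and Hi-C files. It holds fold changes and p-values of genes past their threshold.

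The counts were tested in R 4.3.3 with edgeR 4.0.16 (quasi-likelihood, TMM, default filter, minimum count 10 and total 15, no covariates), with p-values adjusted by Benjamini-Hochberg over 14187 genes and a threshold of 0.01. DESeq2 1.42.0, limma 3.58.1, other normalization and filters, the 0.2 μM libraries alone, a replicate block and leaving out each library were alternatives. A standard error is the size of the log2 fold change over the root of its F statistic. With few counts in DMSO, the ratio of depth-scaled counts is given with an exact 95% interval, which covers counting error only. CPM is TMM-normalized and not divided by gene length, so levels of different genes are not compared. The code was tested on simulated data.

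The members and lists were chosen with earlier results of these data known. Named members are those past 0.01 in edgeR, the 8 with most counts, those with described roles, those at the edge of the rule and up to 10 called by DESeq2 and not edgeR (smallest adjusted p), and others were named after their values were seen or for their place in a set described. Symbols were matched to RefSeq on GRCh38.p14, 111 by symbol and 39 by an older symbol, and 115 had a promoter entry. The neighbour of a member is the nearest tested protein-coding gene on its chromosome.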

Additional observations from a re-analysis of the deposited data

Results flagged for a closer look

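LINC00589 lay below the count rule and entered no comparison of the report. It had 0 counts in both DMSO libraries and 5, 8 and 7 in the doxorubicin libraries, 20 in all, and was singled out because it was the 1 LINC gene under the threshold with 0 counts in DMSO and at least 3 in each doxorubicin library. Against a floor of 3 counts over the DMSO group it was at least 4.002-fold higher in doxorubicin. With the treatments exchanged, 0 such genes were found.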

How the results depend on the processing

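The number of members called at 0.01 moved with the tool and the libraries. It was 3 higher and 1 lower in the edgeR fit, with RLE size factors and with a filter of 1 CPM, 2 and 1 with limma voom, 12 and 5 with DESeq2, 7 and 2 with no filter, 11 and 7 at an adjusted p of 0.05, and 1 and 0 with the 0.2 μM libraries alone in a fit of 3 conditions. Leaving out 1 library gave 0 to 2 higher and 0 lower: 0 and 0 without either DMSO library, 2 without 0.2 μM replicate 1, and 1 without 0.2 μM replicate 2 or without the 0.34 μM library. Fewer libraries enter those fits.

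With the replicate number as a block (DMSO and 0.2 μM, 4 libraries, 1 residual degree of freedom) 9 members were higher and 3 lower, and without the block in the same libraries, an alternative added after seeing the data, 1 and 0. The deviations of same-numbered libraries correlated at 0.527 over all genes and 0.392 over members, so same-numbered libraries deviated alike in part. There are only 2 pairs, and the labels give no more than a replicate number for what they share. The main fit did not use the replicate number, and what lies behind the pairing was not tested.

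The median log2 fold change of the members stayed above 0. It was 0.145 with the 1 CPM filter, 0.161 for 0.2 μM alone, 0.154 with the block, 0.145 in the 4 libraries without it, 0.161 with a summed count of at least 100, 0.161 without the protein-coding members (added after seeing the data), and 0.0858 to 0.289 with 1 library left out. The shared direction with neighbours was 16 for members called by DESeq2, and decay genes called were 5 with DESeq2 and 0 to 1 with 1 library left out.

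Of the alternatives for single named members, 364 kept direction and side of the threshold, 24 gained the call, 20 lost it and 12 changed sign. The sign changed in uncalled members: over the fits with 1 library left out, LINC01420 ran from -0.051 to 0.10, LINC01133 from -2.50 to 2.85, LINC00673 from -0.45 to 0.047, LINC01116 from -1.33 to 1.16, LINC01605 from -0.21 to 0.70 and LINC01358 from -0.69 to 0.65. With the block LINC01116 was at 0.14 and LINC01358 at 0.30, and with 0.2 μM alone LINC01358 was at 0.23. The cause was not tested. Low counts limit what can be seen: 69 of 149 members had a summed count under 200.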
